A study of Bos taurus with 30 samples.

Results

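The 19973 peaks on unplaced scaffolds were those of the 30 deposited peak lists whose sequence name was none of chromosomes 1 to 29, X, Y or MT. They made up 0.920% of all 2172195 peaks and lay on 564 scaffolds of the ARS-UCD1.2 cattle assembly, whose names all begin with NKLS. A peak is a stretch of genome where Tn5 transposase cut more often than in its surroundings. Its fold enrichment is the ratio of the pile-up of reads to the local background. The lists give a single such value for the whole of a broad peak and no summit, so it is not a summit height. An unplaced scaffold is assembled sequence that could not be assigned to a chromosome. Such sequence is often short and rich in repeats and in families with several similar copies, so that a read may match several places equally well. The authors kept only alignments above a minimum mapping quality, which removes many reads of that kind, and the peaks described here are those that the remaining reads gave.

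The study profiled open chromatin by ATAC-seq (transposase-accessible chromatin sequencing) in cattle oocytes and embryos produced in vitro, with 3 libraries for each of 10 conditions. Controls were germinal vesicle-stage (GV) oocytes taken before maturation, 2-cell embryos collected 30 to 32 h after insemination, 4-cell embryos at day 2, 8-cell embryos at day 3, morulae at day 5, ICM (the inner cell masses of blastocysts) and ESC (embryonic stem cell lines). At the 2-, 4- and 8-cell stages a matching group was cultured with α-amanitin at 50 µg/ml from day 1, which blocks RNA polymerase II, and these are called transcription blocked embryos (TBE). The labels name no genetic change in any group. Each library came from a pool of oocytes, embryos or cells, and those of an embryonic stage came from separate oocyte collections. Embryos of a collection were divided between control and TBE culture, so both arms of a stage share collections, but the labels do not say which libraries belong together. The tests of TBE below treat the 6 libraries of a stage as independent. The ESC lines were grown on mouse feeder cells. In pools, a region open in more cells and a region more open in each cell cannot be told apart. Peak lists hold no gene values, so the labelled stages were not checked against marker genes.

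The lists differed far more in length than their unplaced part did. A library held 925 to 247513 peaks in all, a 268-fold range, but 180 to 1860 unplaced peaks, a 10.3-fold range. The shortest lists were 2-cell TBE replicate 1 (925 peaks), 2-cell replicate 1 (1002) and 2-cell replicate 2 (1262), and the longest was 8-cell TBE replicate 2 (247513). The number of reads of each single library was not given in the sources used here, so list length stands in for depth only loosely.

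The share of peaks on unplaced scaffolds was highest at the 2-cell stage and fell through the 4-cell and 8-cell stages to the morula. GV oocytes had 1.74%, 1.83% and 1.75% of their peaks on these scaffolds. The 2-cell libraries had 22.4%, 18.9% and 7.14%, and every one of them lay above every GV library. The 4-cell libraries had 2.11%, 2.43% and 2.65%. The 8-cell libraries had 0.778%, 0.723% and 0.576%, and the morulae had 0.444%, 0.478% and 0.470%, the lowest values of any condition. The ICM returned to 0.723%, 0.918% and 0.742%, above all 3 morula libraries, while ESC had 0.651%, 0.585% and 0.594%, below all 3 ICM libraries. Without replicate 2, whose ICM library was the highest, the step from ICM to ESC was -0.110 instead of -0.184 percentage points.

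In means the share was 1.78% ± 0.0447 in GV oocytes, 16.1% ± 7.98 in 2-cell embryos, 2.40% ± 0.269 in 4-cell embryos, 0.692% ± 0.105 in 8-cell embryos and 0.464% ± 0.0180 in morulae (SD, n = 3 each). ICM reached 0.794% ± 0.107 and ESC 0.610% ± 0.0357. None of the 6 steps between neighbouring control conditions had overlapping libraries, and each gave an exact permutation p of 0.10 (two-sided, adjusted 0.15 over the 9 comparisons made), the smallest that 3 libraries against 3 allow. From the 2-cell stage to the morula the later stage had the lower share in 100% of library pairs (exact permutation p = 5.41e-06, the smallest over 369600 arrangements). With a -log10 q of at least 3 the 3 early steps grew to 42.3, -37.8 and -6.40 percentage points, from 14.4, -13.8 and -1.70. Condition accounted for 89.5% of the variance of the log10 share over the 30 libraries (permutation p = 1e-05, the smallest that 100000 relabellings can give).

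The 2-cell mean rested partly on its long list. Replicate 3, with 6440 peaks, had 7.14% of them on unplaced scaffolds (exact 95% interval 6.53% to 7.80%, which covers counting error only), and without it the mean was 20.6%. Within a stage the longer list had the lower share at the 2-cell, 4-cell and 8-cell stages. List lengths did not overlap between these stages, at 1002 to 6440, 14355 to 42012 and 125253 to 156569 peaks. Over all peaks, stage and list length cannot be told apart there, and the part of list length was not tested. A few lists of like length from other conditions can be set side by side with a 4-cell list. ESC replicate 1 with 39333 peaks had 0.651% of them unplaced, 4-cell replicate 1 with 42012 peaks had 2.11%, and GV replicate 2 with 42596 peaks had 1.83%. The 8-cell TBE replicate 3, with 50090 peaks, had 1.31%. No other control list was as short as those of the 2-cell stage, so only TBE lists can be set beside them. 2-cell replicate 3 with 6440 peaks had 7.14%. The 4-cell TBE replicates 2 and 3, with 4166 and 3094 peaks, had 7.78% and 5.95%, and 2-cell TBE replicate 2 with 8118 had 3.18%. 2-cell replicate 1 with 1002 peaks had 22.4%, and 2-cell TBE replicate 1 with 925 had 19.5%.

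Taking the same number of peaks from each library, the 925 with the smallest p-value, gave higher shares, in nearly the same order of the control conditions. The share was then 7.53% ± 1.41 in GV oocytes, 27.9% ± 5.72 in 2-cell embryos, 14.3% ± 4.23 in 4-cell embryos and 3.28% ± 0.687 in 8-cell embryos (SD, n = 3 each). Morulae had 1.91% ± 0.661, ICM 2.52% ± 0.652 and ESC 1.98% ± 0.347. The steps between GV, 2-cell, 4-cell and 8-cell again did not overlap, but 8-cell and morula, morula and ICM, and ICM and ESC did (exact permutation p = 0.20, 0.40 and 0.30). Equal numbers do not remove list length, since 925 peaks are the whole of the shortest list and only the strongest part of a long one. In 4-cell replicates 1 to 3 the longer list still had the lower share, at 9.73%, 15.2% and 18.1%. At the 2-cell stage the longest list had the highest, at 34.5%. The part of list length was not tested here either.

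**Figure D1:**
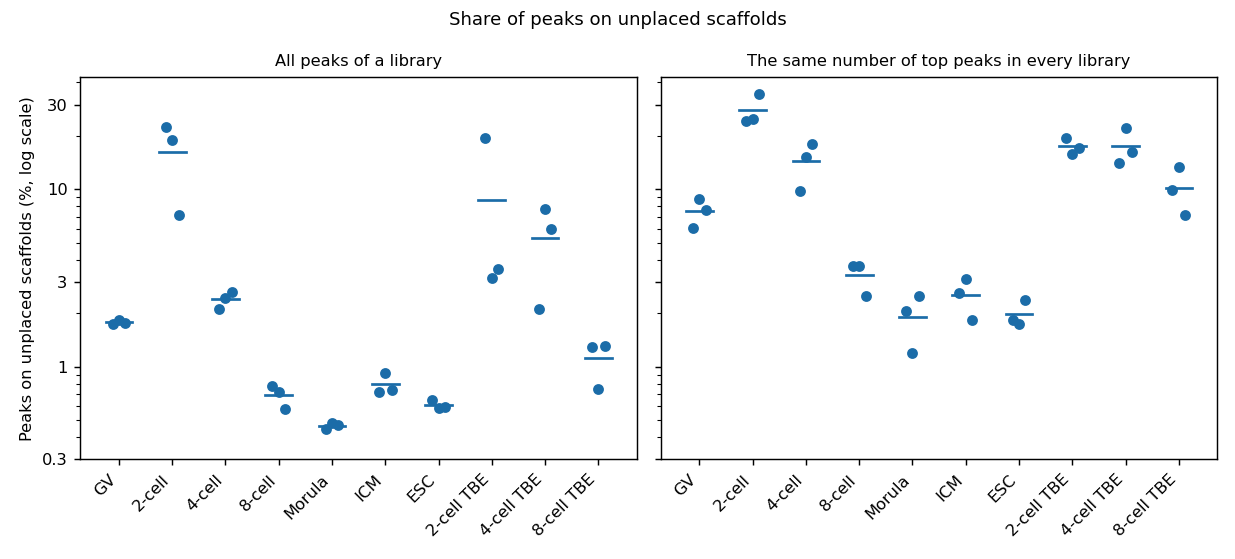
Percent of peaks on unplaced scaffolds (log scale) for each of the 30 libraries by condition, over all peaks (left) and over the 925 peaks of smallest p-value in each library (right). Points are libraries and bars are means of 3. The 2-cell mean is the highest in both panels, and the controls from the 8-cell stage on lie below 1% on the left and below 4% on the right.

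Counted in bases, the unplaced share followed the same course. Peaks on these scaffolds held 2.01% ± 0.160 of the covered bases in GV oocytes, 20.3% ± 7.93 in 2-cell embryos, 3.23% ± 0.550 in 4-cell embryos, 0.829% ± 0.186 in 8-cell embryos and 0.480% ± 0.0084 in morulae (SD, n = 3 each). The ICM had 0.966% ± 0.142 and ESC 0.762% ± 0.0673, and here those groups overlapped (exact permutation p = 0.20).

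The number of unplaced peaks did not follow the share. It averaged 754 in GV oocytes, 308 in 2-cell embryos, 608 in 4-cell embryos, 936 in 8-cell embryos, 810 in morulae, 779 in ICM and 560 in ESC. Between the 8-cell stage and the morula the numbers overlapped (exact permutation p = 0.40), as did those of morula and ICM (p = 0.90 by the same exact test). The number of scaffolds with a peak moved differently: 303.7 ± 21.5 in 8-cell embryos, 202.7 ± 18.2 in morulae, 277.7 ± 28.1 in ICM and 171.0 ± 57.1 in ESC (SD, n = 3 each). Each of these 3 steps had groups that did not overlap (exact permutation p = 0.10, adjusted 0.23), although morulae had the longest control lists.

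In transcription blocked embryos the share over all peaks overlapped with that of the controls at each stage. The 2-cell TBE libraries had 19.5%, 3.18% and 3.55%, a mean of 8.73% ± 9.30 against 16.1% ± 7.98 (exact permutation p = 0.30). The first of these is the shortest list, and without it the TBE mean was 3.36%, below every 2-cell control. Without replicate 2 in both groups the difference was -3.25 instead of -7.42 percentage points. The 4-cell TBE libraries had 2.12%, 7.78% and 5.95%, a mean of 5.28% ± 2.89 against 2.40% ± 0.269 (exact permutation p = 0.30). Without replicate 2 in both groups this difference shrank from 2.89 to 1.65 percentage points. With a -log10 q of at least 3 the differences were wider, at -23.5 points in 2-cell and 12.0 points in 4-cell embryos, and still overlapped (exact permutation p = 0.20 and 0.30).

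The 8-cell TBE libraries had 1.28%, 0.752% and 1.31%, a mean of 1.12% ± 0.315 against 0.692% ± 0.105 (exact permutation p = 0.20). Their lowest value belonged to replicate 2, the list of 247513 peaks, and still lay above 2 of the 3 controls. Without replicate 3 in both groups the difference was 0.267 instead of 0.423 percentage points. It was 1.07 points when the fold enrichment had to reach 3 and 1.51 points with a -log10 q of at least 3, and on both lists the groups did not overlap (exact permutation p = 0.10 each). Over the 925 top peaks of each library the 8-cell TBE share was 10.1% ± 3.08 against 3.28% ± 0.687, and the 2-cell TBE share was 17.4% ± 1.86 against 27.9% ± 5.72. On that scale neither pair overlapped, and the TBE groups lay on opposite sides of their controls (exact permutation p = 0.10 for each, adjusted 0.18). The 4-cell groups overlapped on it too, at 17.5% ± 4.18 in TBE against 14.3% ± 4.23.

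Unplaced peaks were stronger than autosomal peaks of the same library before the 8-cell stage and in TBE, and over all peaks their medians lay close together in controls from the 8-cell stage on. At the 2-cell stage the median fold enrichment was 5.96, 5.40 and 5.06 on unplaced scaffolds and 4.26, 4.05 and 3.73 on chromosomes 1 to 29. At the 8-cell stage it was 4.03, 3.90 and 4.28 against 3.84, 3.81 and 4.04. In ESC it was 4.36, 4.12 and 3.92 against 4.33, 4.13 and 3.89. The unplaced median was 1.33 to 1.40 times the autosomal one in the 2-cell libraries and 1.02 to 1.06 times it in the 8-cell libraries.

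As a log2 ratio of the medians, unplaced over autosomal, the condition means were 0.15 ± 0.016 in GV oocytes, 0.45 ± 0.034 in 2-cell embryos, 0.28 ± 0.097 in 4-cell embryos, 0.062 ± 0.025 in 8-cell embryos, 0.030 ± 0.026 in morulae, 0.048 ± 0.046 in ICM and 0.0054 ± 0.0080 in ESC (SD, n = 3 each). All 10 conditions and 28 of 30 libraries lay above 0, with a mean of 0.20 (exact sign-flip permutation p = 0.0020 over the 10 condition means, the smallest it allows). The exceptions were ICM replicate 1 and ESC replicate 2, at -0.0047 and -0.0036. The condition means in this and the later sign-flip tests are not fully independent, since control and TBE arms of a stage share oocyte collections. The first 3 steps, from GV through the 8-cell stage, did not overlap over all peaks (exact permutation p = 0.10 each, adjusted 0.18), whereas the steps among 8-cell, morula, ICM and ESC did. The step from 2-cell to 4-cell was -0.096 instead of -0.16 without replicate 1.

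These steps depended on which peaks were counted. With a -log10 q of at least 3 the mean over conditions was 0.090 (exact sign-flip permutation p = 0.0020). The step from GV to 2-cell was then 0.063 instead of 0.29 and still without overlap, and that from 2-cell to 4-cell was -0.011 instead of -0.16 and that from 4-cell to 8-cell -0.039 instead of -0.22, both with overlap (exact permutation p = 0.80 and 0.30). Over the top 925 peaks the step from 4-cell to 8-cell turned to 0.14. On that scale morula minus 8-cell was -0.41 and ICM minus morula 0.42, neither with overlap (exact permutation p = 0.10 each), and ESC minus ICM was -0.27 (exact permutation p = 0.20). Among the top 925 peaks the ratio thus moved over the later stages, but its unplaced medians rested on few peaks. An 8-cell library had 23 to 34 unplaced peaks among its top 925, a morula library 11 to 23, an ICM library 17 to 29 and an ESC library 16 to 22.

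The log2 ratio in TBE was 0.36 ± 0.080 in 2-cell embryos, 0.37 ± 0.12 in 4-cell embryos and 0.26 ± 0.035 in 8-cell embryos. At the 8-cell stage the 3 TBE libraries had median fold enrichments of 4.14, 2.95 and 4.45 on unplaced scaffolds and 3.37, 2.49 and 3.78 on the autosomes. All of their ratios exceeded those of the 8-cell controls over all peaks, a difference of 0.20 (exact permutation p = 0.10, adjusted 0.18). It was 0.11 with a -log10 q of at least 3, still without overlap, and 0.11 over the top 925 peaks, where the groups overlapped (exact permutation p = 0.40). The absolute fold was lowest on both kinds of sequence in replicate 2, the longest list.

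**Figure D2:**
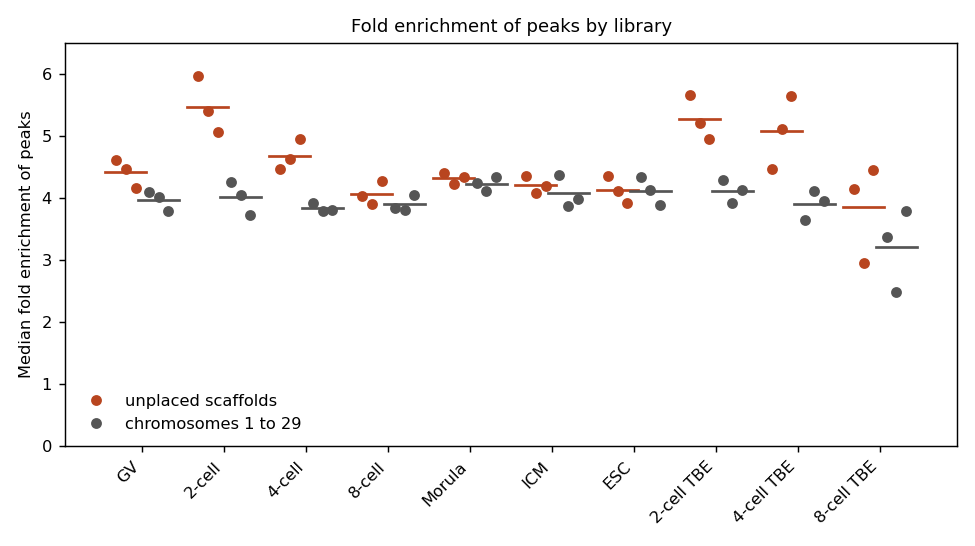
Median fold enrichment of the peaks on unplaced scaffolds (orange) and on chromosomes 1 to 29 (grey) in each of the 30 libraries by condition. Points are libraries and bars are means of 3. The unplaced median is the higher in each GV, 2-cell, 4-cell and TBE library, and the classes interleave in morula, ICM and ESC.

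The strongest peaks of the early lists were in large part unplaced. Among the 100 peaks of highest fold enrichment in a library, 23, 30 and 37 lay on unplaced scaffolds in GV oocytes. The 2-cell libraries had 50, 51 and 64 and the 4-cell libraries 37, 49 and 51. The 8-cell libraries had 21, 16 and 16, and each of the morulae had 6. ICM had 13, 16 and 14 and ESC 7, 8 and 7.

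The 8-cell TBE libraries had 53, 53 and 30 unplaced peaks among their top 100, and their mean of 45.3 ± 13.3 against 17.7 ± 2.89 came with groups that did not overlap (exact permutation p = 0.10, adjusted 0.15). The 2-cell TBE libraries had 48, 43 and 50 and the 4-cell TBE libraries 39, 55 and 48, and both overlapped with their controls (exact permutation p = 0.20 and 0.80). The difference between the stages was not tested on this count. Of peaks with a fold enrichment of 10 or more, 68.0% were unplaced in 8-cell TBE replicate 2 (17 of 25) and 1.24% in morula replicate 2 (29 of 2334). The 2 libraries thus had 17 and 29 such unplaced peaks, and it was the strong peaks elsewhere that differed in number.

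The highest fold enrichment on an unplaced scaffold was 20.0, in ESC replicate 2, and the highest on an autosome was 20.3, in morula replicate 3. Every library had an unplaced peak above 15 and an autosomal one above 15, so that the upper end of the scale was alike on both kinds of sequence.

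Unplaced peaks were wider than autosomal ones by a mean log2 ratio of 0.16 over conditions (8 of 10 conditions and 26 of 30 libraries above 0, exact sign-flip permutation p = 0.012). The median width on unplaced scaffolds ran from 258 bases in 2-cell TBE replicate 1, where the autosomal median was 204, to 702 in 8-cell TBE replicate 2, where it was 639. Reads were extended to 200 bases in peak calling, and autosomal medians of the shortest lists lay at or near that setting. The largest log2 ratio, 0.54 in 2-cell replicate 2, was taken against an autosomal median of 200. The width difference turned on a stricter list: with a -log10 q of at least 3 the ratio was -0.012 and over the top 925 peaks it was -0.062. Of the unplaced peaks, 1055 (5.28%) started in the first 1000 bases of their scaffold.

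Unplaced peaks also recurred more than autosomal ones among the replicates of GV, 2-cell, 4-cell and TBE libraries. In the 2-cell libraries 62.5%, 58.2% and 29.8% of unplaced peaks were overlapped by a peak in both other libraries, against 15.4%, 11.4% and 1.91% of autosomal peaks. At the 4-cell stage the unplaced percentages were 32.7%, 52.3% and 77.6% against 13.2%, 23.7% and 38.1%. At the 8-cell stage they were 55.3%, 58.6% and 60.1% against 64.8%, 63.2% and 51.9%, so that 2 of 3 libraries had the autosomal peaks ahead.

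The difference averaged 40.6 percentage points in 2-cell embryos, 29.2 in 4-cell embryos, 9.07 in GV oocytes, -1.97 in 8-cell embryos, -4.43 in morulae, -0.357 in ICM and 0.478 in ESC. Over the 10 conditions its mean was 14.1 points (7 of 10 conditions and 23 of 30 libraries above 0, exact sign-flip permutation p = 0.027). With a -log10 q of at least 3 the mean was 7.98 points (exact permutation p = 0.080), and over the top 925 peaks it was 28.0 points (exact permutation p = 0.0020). In 8-cell TBE the difference was 16.8 points, and its libraries did not overlap with the 8-cell controls (exact permutation p = 0.10, adjusted 0.30).

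Merged over the 30 libraries, the unplaced peaks formed 3108 regions. Of these, 1007 (32.4%) had a peak in 1 library only and 36 (1.16%) had one in all 30. The autosomes had 534484 regions, of which 39.4% occurred in 1 library and 67 (0.0125%) in all 30. Of the 110 regions of any sequence found in every library, 32.7% were unplaced. Another 74 unplaced regions (2.38%) occurred in 26 to 29 libraries, against 0.188% of autosomal regions.

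**Figure D3:**
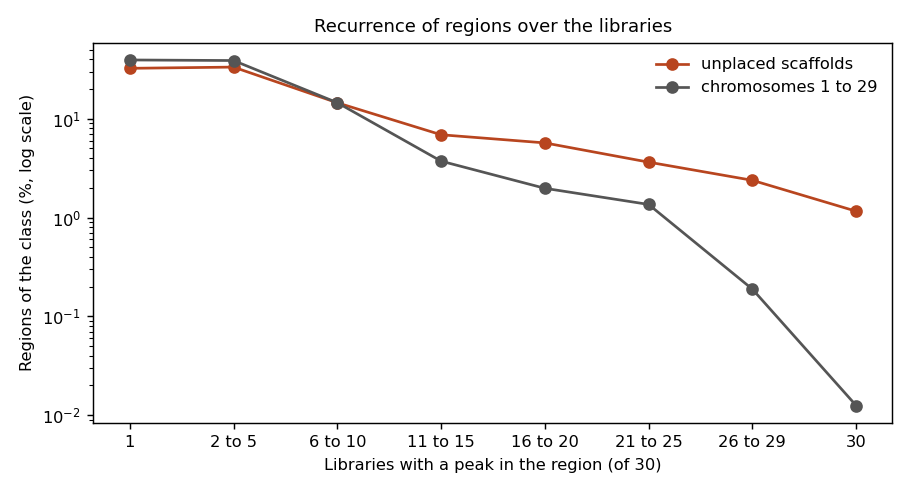
Percent of merged regions (log scale) by the number of libraries in which they held a peak, for unplaced scaffolds (orange, 3108 regions) and chromosomes 1 to 29 (grey, 534484 regions). The lines lie close up to 10 libraries and part beyond, to 1.16% against 0.0125% at all 30.

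The 36 regions found in every library lay on 29 scaffolds and were 303 to 4150 bases wide, with a median of 1300. Counting 1 peak per region, they supplied at least 1.94% of the unplaced peaks in the longest list, 8-cell TBE replicate 2. In the shortest, 2-cell TBE replicate 1, they supplied at least 20.0%. The median of their fold enrichments within a library moved little, from 4.81 in 8-cell TBE replicate 2 to 6.88 in 2-cell replicate 1. In the 67 autosomal regions found in every library the same median was 4.36 and 5.48 in these libraries. Because each such region had to pass in the shortest list, these values describe a set chosen for recurrence and were not tested.

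The strongest of them lay at bases 53686 to 54110 of scaffold NKLS02002110.1, with a mean fold enrichment of 17.2 over the 30 libraries. Its lowest value was 12.4, in ESC replicate 1, its median 17.3 and its highest 19.2, in GV replicate 3. The next was at 15498 to 15823 of NKLS02000520.1, with a mean of 16.05 and a range of 11.6 to 20.0. NKLS02001553.1 held a region at 4015 to 4591 with a mean of 14.98 and a range of 11.4 to 19.6, and another at 38143 to 38951 with a mean of 9.23. These 3 leading regions stayed above 11 in every library, whatever the stage or treatment.

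Other constant regions varied more. The region at 14910 to 15287 of NKLS02000055.1 had a mean of 13.9 but a lowest value of 6.83, in a morula library, and that at 106 to 408 of NKLS02000040.1 had a mean of 11.9 and a lowest value of 4.84, also in a morula. NKLS02000429.1 at 16552 to 17029 had a mean of 13.4, with a range of 8.37 to 15.99. The region of NKLS02001285.1 at 14698 to 15413 was among the steadiest, with a mean of 11.6 and a range of 9.52 to 13.1.

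The ninth and the eighth of the 10 leading regions were NKLS02001879.1 at 6244 to 7414 (mean 9.51, range 5.70 to 15.9) and NKLS02000379.1 at 16111 to 16895 (mean 10.4, range 6.12 to 13.0). The set also held weak regions: that at 67814 to 70339 of NKLS02002005.1 had a mean fold enrichment of 2.84 and never exceeded 3.69. That scaffold alone had 4 of the 36 regions. Sequences of these regions and any genes on them were not analysed here.

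**Figure D4:**
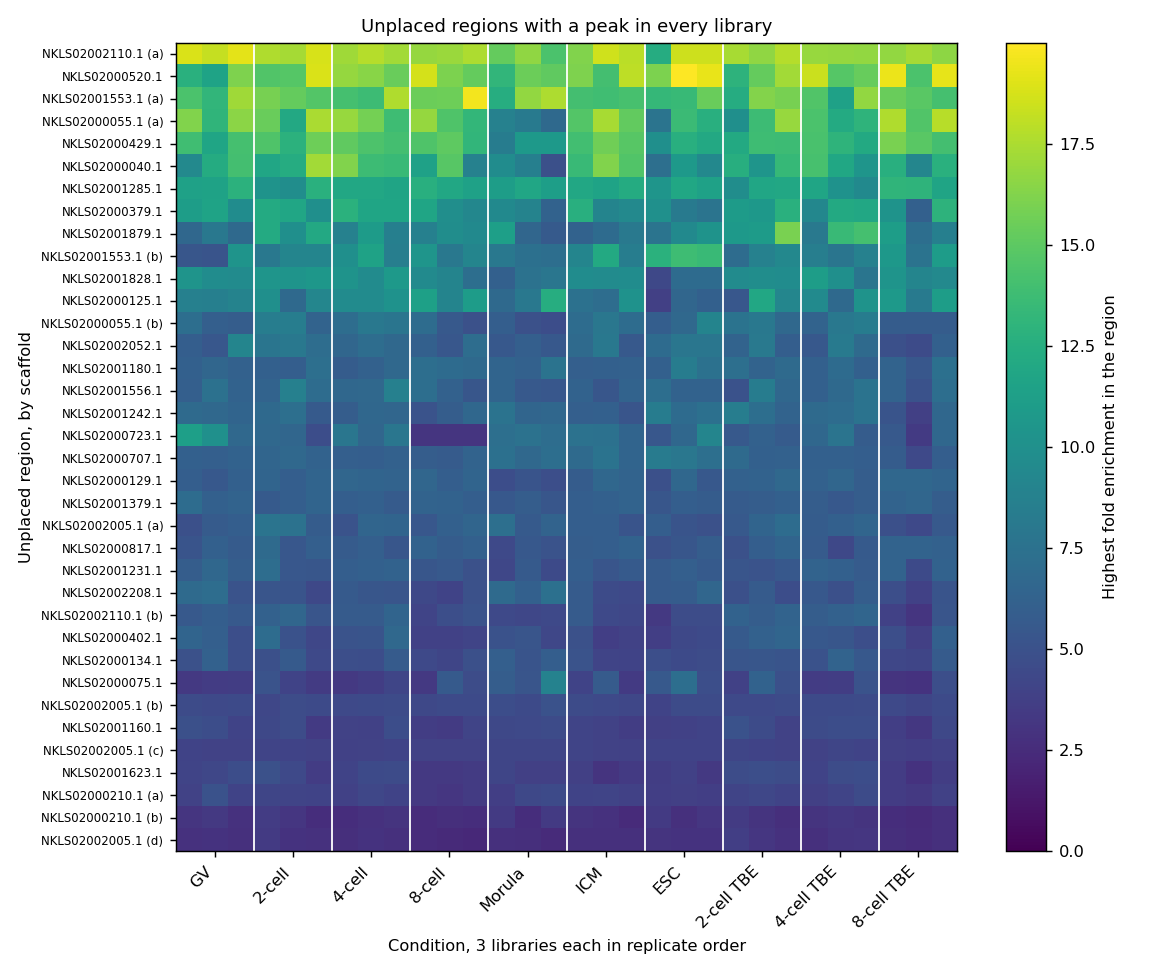
Highest fold enrichment in each of the 36 unplaced regions with a peak in every library (rows, by mean, named by scaffold, with letters where a scaffold has several) in the 30 libraries (columns, 3 per condition in replicate order). The 3 top rows stay between 11 and 20 in every library and the 2 bottom rows stay under 4.

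A peak occurred in all 30 libraries on 32 of the 564 scaffolds and in a single library on 69. The furthest peak end, the only measure of length that the lists give, had a median of 16.3 kb, and on 457 scaffolds it was below 50 kb. No scaffold dominated: the largest mean share of a library's unplaced peaks was 3.29%, on NKLS02002210.1. That scaffold had no peak in any 2-cell control library and 50, 98 and 67 in the morulae. NKLS02002208.1, the scaffold whose peaks reached furthest (9297643), came next with 3.11% and had peaks in every library, from 2 in a 2-cell library to 74 in morula replicate 2. NKLS02000910.1 had 1.96% and was without a peak in 10 libraries, all of them from 2-cell, 4-cell or TBE groups.

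NKLS02000125.1 (1.88%) and NKLS02002005.1 (1.84%) also had a peak in every library. On NKLS02002005.1 the number ran from 4 in 2-cell TBE replicate 1 to 16 in 8-cell TBE replicate 2, with 13, 13 and 11 peaks in the GV libraries. There were 5, 7 and 10 in those of the 2-cell stage and 11, 12 and 12 in morulae, with 11, 11 and 9 between them at the 8-cell stage. The others of the 10 leading scaffolds were NKLS02002207.1 (1.73%), NKLS02000355.1 (1.59%), NKLS02001289.1 (1.51%), NKLS02001178.1 (1.47%) and NKLS02000412.1 (1.46%), with peaks in 22, 25, 29, 27 and 22 libraries.

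This difference between scaffolds was followed up with a division chosen after the values were seen, into the 9 long scaffolds whose furthest peak ended at 500 kb or beyond and the 555 others. Peaks on the long scaffolds were more numerous in longer lists. The 2-cell libraries had 8, 4 and 13 of them and the 4-cell libraries 68, 29 and 15. The 8-cell libraries had 174, 170 and 188 and the morulae 184, 319 and 237. As a share of all peaks they were nearly level, at 0.132% ± 0.0386 in GV oocytes, 0.131% ± 0.0290 in 4-cell embryos, 0.130% ± 0.0095 in 8-cell embryos, 0.140% ± 0.0124 in morulae, 0.160% ± 0.0244 in ICM and 0.170% ± 0.0141 in ESC (SD, n = 3 each). The 2-cell value of 0.439% ± 0.317 rested on those few peaks. In TBE it was 0.227% ± 0.182, 0.192% ± 0.0244 and 0.116% ± 0.0154 for 2-, 4- and 8-cell embryos, and of these the 4-cell groups did not overlap with their controls.

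Membership rests on the longer lists, and NKLS02000344.1 counted as long from 1 peak in 4-cell TBE replicate 2 and 3 in 8-cell TBE replicate 2. Since the division was chosen on these libraries, its values are a description with no test.

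Peaks on the other 555 scaffolds made up 1.64% ± 0.0709 of the list in GV oocytes, 15.7% ± 7.73 in 2-cell embryos, 2.26% ± 0.298 in 4-cell embryos, 0.562% ± 0.0951 in 8-cell embryos and 0.323% ± 0.0086 in morulae, then 0.634% ± 0.0894 in ICM and 0.440% ± 0.0496 in ESC. On these scaffolds none of the 6 steps had overlapping libraries. On the long ones the 4 steps from 4-cell to ESC overlapped, and those from GV to 2-cell and from 2-cell to 4-cell did not. The number of peaks on the other scaffolds was 299 in 2-cell embryos, 759 in 8-cell embryos, 563 in morulae and 396 in ESC.

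Long scaffolds thus held 2.69% of unplaced peaks in 2-cell embryos, 5.60% in 4-cell embryos, 19.0% in 8-cell embryos, 30.2% in morulae, 20.2% in ICM and 28.1% in ESC. In TBE they held 3.17%, 4.64% and 11.4% at the 2-, 4- and 8-cell stages. Of the 36 regions found in every library, 1 was among the 829 regions of the long scaffolds (0.121%) and 35 were among the 2279 of the others (1.54%).

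**Figure D5:**
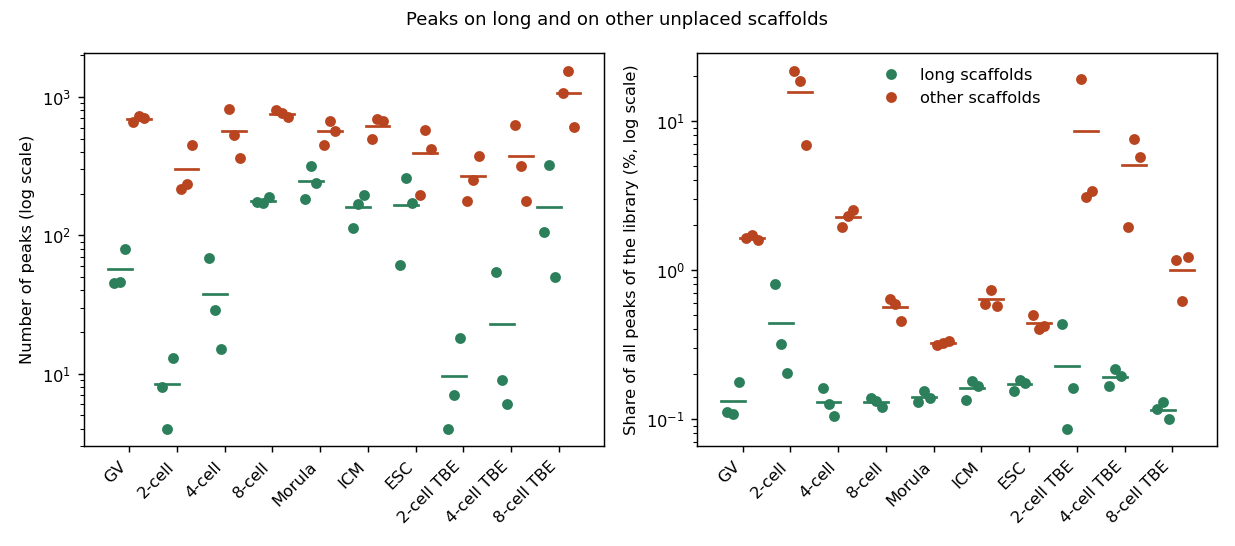
Number of peaks (left) and share of all peaks of the library (right), both on log scales, on the 9 long unplaced scaffolds (green) and the 555 others (orange) in each library by condition. Points are libraries and bars are means of 3. On the right the green points of the control groups from the 4-cell stage on lie between 0.10% and 0.19%, while the orange points fall from the 2-cell stage to the morula.

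Presence and absence of single regions were compared between groups by counting regions with a peak in all 3 libraries of one group and in none of the other. Absence means that no peak was called, which is likelier in a short list. The 2-cell lists held 1002 to 6440 peaks and the GV lists 40132 to 44678. Loss into or gain out of the 2-cell stage cannot be told apart from list length. From GV to 2-cell, 130 of 1241 unplaced regions (10.5%) were lost in this sense, against a background of 21.2% over all regions, and 1 was gained (background 0.00129%). That 1 region, at 21510 to 21802 of NKLS02000086.1, was the only gain among 77371 regions of any sequence, with fold enrichments of 6.74, 4.71 and 7.63 in 2-cell embryos. In contrast, 113 unplaced regions (9.11%) had a peak in all 6 libraries, against 0.2999% of all regions. Among the lost ones, 295613 to 296431 of NKLS02002210.1 had fold enrichments of 7.71, 8.44 and 6.70 in GV oocytes, no peak in 2-cell embryos and 9.05, 7.13 and 5.38 in 4-cell embryos.

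From 2-cell to 4-cell, 20 of 1045 unplaced regions (1.91%) were gained, against 5.66% of all regions, and none was lost (background 0.0%, no region of any sequence). With a peak in all 6 libraries there were 131 unplaced regions (12.5%), against 0.407% of all.

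From 4-cell to 8-cell, 164 of 1656 unplaced regions (9.90%) were gained, below the background of 25.3%, and 22 (1.33%) were lost, above the background of 0.0468%. Over all sequences, 108 of 230701 regions were lost at this step. The strongest was at 29316 to 30301 of NKLS02001920.1. It had fold enrichments of 12.2, 8.72 and 7.84 in the 2-cell libraries, 12.6, 7.55 and 10.6 in the 4-cell libraries, no peak in any 8-cell, morula or ESC library, and 6.34, 11.3 and 5.92 in ICM. In 8-cell TBE it had 10.0, 5.87 and 6.08. A second, at 59766 to 60056 of NKLS02001553.1, had 10.3, 8.02 and 9.71 in 4-cell embryos and none in 8-cell embryos. Of the gained ones, 334362 to 335200 of NKLS02001494.1, a long scaffold, had 9.46, 10.7 and 10.8 in 8-cell embryos, 10.8, 7.92 and 10.5 in morulae and 7.09, 6.73 and 7.16 in ICM, with no peak in any of the other 21 libraries.

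From 8-cell to morula, 87 of 1784 unplaced regions (4.88%) were gained, against 9.23%, and 124 (6.95%) were lost, against 3.54%. A region at 29026 to 29506 of NKLS02001759.1 had fold enrichments of 10.1, 11.7 and 12.2 in the 8-cell libraries and none in the morulae. A region at 73961 to 74285 of NKLS02000789.1 had peaks in 24 libraries, with 11.2, 12.9 and 6.00 at the 8-cell stage, none in any morula, and 7.88, 9.80 and 10.5 in ICM.

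From morula to ICM, 73 of 1715 unplaced regions (4.26%) were gained, against a background of 0.762%, and 113 (6.59%) were lost, against 12.9%. Gains at this step included the region of NKLS02000789.1, that of NKLS02001920.1 and one at 14294 to 16670 of NKLS02001780.1, with 7.55, 8.39 and 8.80 in ICM. Among the losses, 1604 to 1926 of NKLS02000377.1 had 13.0, 12.9 and 10.2 in morulae and no peak in ICM or ESC. From ICM to ESC, 19 of 1634 unplaced regions (1.16%) were gained, against 3.97%, and 119 (7.28%) were lost, against 8.15%. A region at 4620719 to 4621049 of NKLS02002208.1 had a peak in the 3 ESC libraries alone, with fold enrichments of 4.18, 8.40 and 7.23. The strongest gain, at 5523178 to 5523552 of the same scaffold, also had a peak in every 8-cell and morula library.

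The share of unplaced regions that were gained was thus below the background at 4 of the 6 control steps and above it from GV to 2-cell, with 1 region, and from morula to ICM. The share of unplaced regions that were lost was above the background from 4-cell to 8-cell and from 8-cell to morula. It was below the background at the steps from GV and morula, and near it from ICM to ESC (7.28% against 8.15%). The comparisons that share a group are not independent of each other, and regions were not treated as replicates.

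In TBE the counts of unplaced regions were small before the 8-cell stage. In 2-cell embryos 1 of 655 unplaced regions had a peak in all TBE and no control libraries, against a background of 0.325%, and 6 (0.916%) had the reverse, against 0.0282%. Those 6 were all the regions of any sequence that did so. The leading one, at 22786 to 23064 of NKLS02001643.1, had fold enrichments of 7.45, 7.62 and 8.56 in the 2-cell controls and was present in 26 libraries. At the 4-cell stage none of 1135 unplaced regions was gained in TBE (background 0.0%, no region of any sequence) and 6 (0.529%) were lost, against 0.69%.

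At the 8-cell stage 74 of 2333 unplaced regions (3.17%) had a peak in all TBE and no control libraries, against 1.65% of all regions, and 91 (3.90%) the reverse, against 9.98%. Peaks in all 6 libraries occurred in 307 unplaced regions (13.2%), against 5.19% of all. Besides that of NKLS02001920.1, a region at the very start of NKLS02001040.1 (bases 1 to 1858) had fold enrichments of 8.60, 5.23 and 8.31 in 8-cell TBE and none in the 8-cell controls. It had peaks in all of the 4-cell, morula, ICM and ESC libraries, with 8.01, 6.23 and 7.32 at the 4-cell stage and 5.43, 9.27 and 4.79 in morulae. The region of NKLS02001494.1 had the opposite course, with a peak in every 8-cell control and in none of the TBE libraries. So did a region at 6797168 to 6797606 of NKLS02002208.1, found in the 3 8-cell controls alone at fold enrichments of 9.27, 7.64 and 8.98. A stronger region of that scaffold, at 8642308 to 8643324, also had a peak in every morula and ICM library.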

How the data were processed

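The 30 libraries were ATAC-seq of size-selected fragments. Per the labels and the study's methods, the authors trimmed reads (cutadapt 0.4.0) and mapped with BWA 0.7.17 (assembly ARS-UCD1.2). They removed duplicates, mitochondrial and low-quality alignments (SAMtools 1.7) and called broad peaks with MACS2 2.1.1. For its own peak sets the paper pooled the replicates of a stage and subsampled the reads to equal depth first. The lists used here are those of single libraries. The versions are those of the submitters' processing notes. The deposited lists give positions, a score, fold enrichment over local background (a ratio), and -log10 p and -log10 q values. The authors' lists have no per-peak read counts, and the reads per library were not given in the sources used here. Removing low-quality alignments lowers coverage on sequence with several copies, so the lists show only what unique reads reach.

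Shares, medians and recurrence were computed per library with Python 3.11.15, numpy 2.4.6, pandas 2.3.3 and scipy 1.17.1. Regions are peaks merged over libraries where they share 1 base. For comparisons of 2 groups they were merged over those 6 libraries, and the named regions come from the merge over all 30. Exact two-sided permutation tests over libraries were adjusted by Benjamini-Hochberg over 9 comparisons. Intervals are exact 95% Clopper-Pearson and cover counting error only, since peaks and reads are not independent molecules. Simulated lists served to test the code, and the interval part gave 0 mismatches over 200 trials. Starts are given 1-based.

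Named were the 10 regions in most libraries, ties by mean fold enrichment, up to 3 regions per comparison and direction by mean fold enrichment, and the 10 scaffolds of largest mean share. Of the second set only some are printed. They were picked by their pattern over the conditions and not by rank alone, so they can look more stage-specific than the ranked set. The scaffolds, lists and tests were chosen with earlier results of these data known. Peaks per length, sequences and genes of the scaffolds were not analysed here, since no genome or annotation of the same build was used. Alternatives were a -log10 q or a fold enrichment of at least 3, equal numbers of top peaks, leaving out the leading scaffold or a replicate number, mean for median fold, an overlap of 50%, and a replicate block.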

Additional observations from a re-analysis of the deposited data

Results flagged for a closer look

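Over all peaks, the difference between TBE and controls in the fold enrichment of unplaced over autosomal peaks was not the same at the 2-cell and 8-cell stages. Such contrasts between stages were not planned. They were computed for the unplaced share too, and this one was picked by its p-value. The log2 ratio was lower in TBE than in controls at the 2-cell stage, by -0.089, and higher at the 8-cell stage, by 0.20, a difference of 0.29 (exact permutation p = 0.0050 over the libraries of both stages, the smallest it allows, adjusted 0.015 over 3 pairs of stages). All 3 TBE libraries lay above all 3 controls at the 8-cell stage and below them at the 2-cell stage. The difference was 0.078 with a -log10 q of at least 3 (exact permutation p = 0.27) and 0.20 over equal numbers of top peaks (exact permutation p = 0.18), and its cause was not tested. Control and TBE libraries of a stage share oocyte collections. With the 2 arms exchanged only within a replicate number, which the labels do not tie to a collection, the exact permutation p was 0.031, the smallest that such a replicate block allows. The 4-cell effect was 0.089 and was not shown to differ from either neighbour (exact permutation p = 0.11 against the 2-cell stage and 0.41 against the 8-cell stage).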

How the results depend on the processing

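Of 286 recomputed values, 260 kept their direction and side of the threshold, or stayed within the allowed range of a count. Comparisons of 3 libraries against 3 allow no exact p below 0.10, and none below 0.33 with a replicate number left out. Those could not cross the threshold of 0.05, so only their direction could change, and the 260 include them. With a -log10 q of at least 3, the width ratio turned to -0.012, the recurrence difference was 7.98 points, and counts of regions in all 3 libraries of one group and none of the other fell to 77 (GV, not 2-cell), 73 (8-cell, not morula), 11 (ESC, not ICM) and 0 (2-cell TBE, not 2-cell). The share over all regions is not given for that stricter list, so these lower counts show nothing particular to unplaced regions. On that list the TBE difference in log2 fold ratio at the 2-cell stage turned to 0.032, its 4-cell minus 2-cell contrast to -0.017, and the 8-cell minus 4-cell contrast in log2 share to 0.29. Over equal numbers of top peaks the width ratio was -0.062, the log2 fold ratio turned at the 8-cell against the 4-cell stage (0.14) and in 4-cell TBE (-0.020), and the 8-cell minus 4-cell contrast in log2 share was 1.30. Without replicate 3, ICM minus morula in log2 fold ratio was -0.0076, and the 8-cell minus 4-cell contrast in log2 share (-0.30) ran from -0.80 to 0.37 with 1 replicate number left out, the latter without replicate 2. The difference between the 8-cell and 2-cell effects described above was 0.26 to 0.32 with 1 replicate number left out, where 0.056 is the smallest exact p. The causes were not tested. Same-numbered TBE and control libraries did not deviate together at every stage (correlations over unplaced regions of -0.13 to 0.22), though at the 8-cell stage each correlated best with its own number (0.090 to 0.16). With the number as a replicate block, no TBE share of peaks or bases changed its call, since with 3 pairs no exact p can be below 0.25. Of the contrasts of TBE effects between stages, those of 4-cell and 8-cell against 2-cell in log2 share (2.21 and 1.92) and that of 4-cell against 2-cell in log2 fold ratio (0.18) then reached an exact permutation p of 0.031, from 0.090, 0.10 and 0.11. In covered bases, the differences moved by over 1.5 times without replicate 2 for ESC minus ICM (-0.10 instead of -0.20 points), 2-cell TBE (-4.17 instead of -9.69) and 4-cell TBE (2.55 instead of 4.50), without replicate 3 for 8-cell TBE (0.249 instead of 0.456) and without replicate 1 for ESC minus ICM (-0.309). In log2 fold ratio, 2-cell TBE moved from -0.089 to -0.046 without replicate 3, and the small steps among 8-cell, morula, ICM and ESC moved by over 1.5 times too. The shortest lists hold few peaks, which limits the 2-cell values.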
